A study of Mus musculus with 2 samples.

Results

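The TGF-beta superfamily set comprised 43 genes of the 30385 entries in the table, matched by gene symbol. It held 12 ligands, 10 receptors, 6 extracellular antagonists, 7 SMADs, the 2 nuclear corepressors Ski and Skil, the protease Bmp1, and 5 genes that are targets of the pathway. All 43 symbols were found, and the genes lie on 17 chromosomes. The series measured transcripts of mouse heart by 5′RNA-seq, an RNA-seq variant in which intact polyA RNA is used without fragmentation, so that reads gather near transcription starts. There were 2 libraries. One came from MHC403/+ mice, heterozygous carriers of a missense mutation in the myosin heavy chain that model hypertrophic cardiomyopathy, and the other from wild-type (WT) mice. Both groups were 129/SvEv mice aged 8 to 16 weeks, and both had been given subcutaneous CsA (cyclosporine A, a calcineurin inhibitor) for 2 weeks, in 2 daily injections of 15 mg/kg, so no untreated heart was measured. Biological replicates had been pooled, so each genotype had 1 library and no difference has a replicate check.

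Ligands of the TGF-beta superfamily are secreted dimers that bring together type I and type II serine/threonine kinase receptors, and the type I receptor then phosphorylates SMAD proteins. TGF-beta and activin ligands act mainly through SMAD2 and SMAD3, BMP ligands mainly through SMAD1 and SMAD5, and both branches share SMAD4. Secreted antagonists bind the ligands outside the cell, while SMAD6, SMAD7, SKI and SKIL restrain the signal inside it. In the heart TGF-beta is best known as an inducer of extracellular matrix production by fibroblasts.

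Sequencing gave 5468677 reads for MHC403 and 5481123 for WT over all entries. Read counts are given per library, and RPM is the count after scaling the library total to 1000000. A ratio is MHC403 over WT after scaling to these totals, with an exact (Clopper-Pearson) 95% interval in parentheses. The intervals cover counting error only. A gene is called measured when its higher library reached 50 reads, and a gene is called higher or lower at a ratio of 2-fold. Most measured genes had ratios above 1, with a median log2 ratio of 0.57 (1.48-fold), and mitochondrially encoded entries took 13.7% of MHC403 reads and 29.5% of WT reads. Median-of-ratios scaling lowers every log2 ratio by 0.55. The defining cardiac myocyte markers were present in both libraries, among them Tnnt2 with 61930 reads in MHC403 and 58949 in WT.

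Of the 43 genes, 38 had more RPM in the MHC403 library, 3 (Bmp7, Bmpr2 and Chrd) had more in WT, and 2 (Bmp10 and Grem1) had no read in either. Over all 30385 entries, 13676 had more RPM in MHC403, 4655 had more in WT and 12054 had no read. Of the 27 measured members 15 were at least 2-fold higher in MHC403, none was lower and 12 were within 2-fold. Over all 9507 measured genes 26.1% were higher and 2.43% were lower by the same rule. The measured members had a median log2 ratio of 1.27 (2.41-fold), beside 0.57 for all measured genes. The read minimum favours genes that are high in 1 library: 7 measured members had under 50 reads in WT and none had under 50 in MHC403. Where both libraries reached 50 reads, 9 of 20 members were higher, beside 17.1% of all genes that passed the same minimum. Selected by the sum of both libraries, at 100 reads or more, 13 of 25 members were higher and none was lower, beside 23.1% and 2.08% of all such genes. A ratio of 4-fold was reached by 7 of the 27, namely Fstl3, Tgfb2, Inhbb, Fstl1, Tgfbi, Tgfb1i1 and Tgfbr1, beside 5.80% of all measured genes. Of these, Fstl3, Tgfb2, Inhbb and Tgfbr1 had under 50 reads in WT and so were measured only through MHC403. The 4-fold share with 50 reads in both libraries was not computed over all genes. The counting interval lay wholly above 1 in 22 of the 27 measured members, beside 63.2% of all measured genes. The interval lay wholly below 1 in none, beside 10.3%. After median-of-ratios scaling, higher members numbered 10 of 27 and lower members 0, beside 10.9% and 7.59% of all measured genes.

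**Figure D1:**
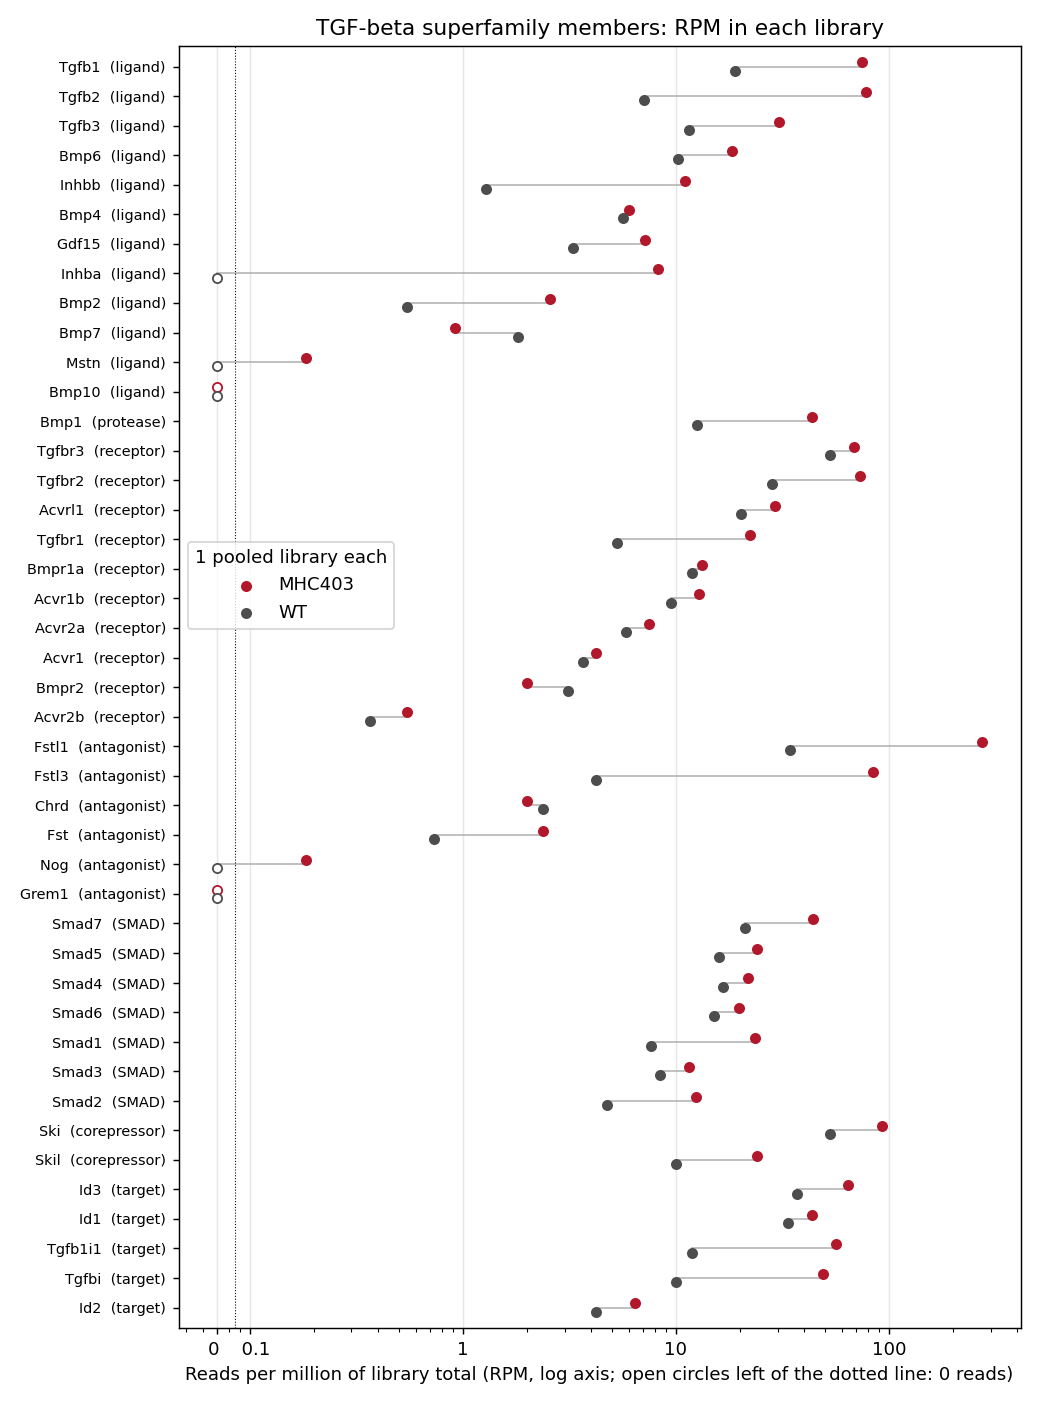
RPM of each of the 43 members in the MHC403 (red) and WT (grey) libraries on a log axis, grouped by role, with 1 pooled library per genotype and open circles left of the dotted line for 0 reads. The red point lies to the right in 38 rows, with the widest gaps among measured genes at Fstl3, Tgfb2, Inhbb and Fstl1.

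Promoter sequences of 5 members are shown because the measured members span a 19.96-fold ratio in Fstl3 and a 1.11-fold ratio in Bmpr1a, and the assay reads transcript starts. Fstl3, Tgfb2 and Bmpr1a are the measured members with the highest and lowest lower interval bounds that have a promoter in the RefSeq table, and Fstl1 and Tgfb1 were added after their values were seen. Each line gives the 250 bases before the RefSeq start, 5′ to 3′ on the gene's strand, from the GRCm38.p6 build, whereas gene positions further on are on mm9. Capitals mark matches on either strand to 7 short motifs, which may share bases. The SMAD-binding element was searched as CAGACA and the BMP-responsive GC element as GGCGCC. The GC box was searched as CCGCCC and the box for TATA-binding protein as TATAAA. The E-box was searched as CACGTG, the AP-1 site as TGACTCA and the core of the cyclic AMP response element as TGACGT.
Fstl3, chr10:79777024-79777273, plus strand: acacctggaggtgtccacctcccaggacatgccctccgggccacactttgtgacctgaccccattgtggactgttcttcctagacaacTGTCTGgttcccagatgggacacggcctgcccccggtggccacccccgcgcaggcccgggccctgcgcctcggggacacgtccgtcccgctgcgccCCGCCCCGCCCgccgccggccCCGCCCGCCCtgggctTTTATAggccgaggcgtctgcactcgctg
Tgfb2, chr1:186705990-186706239, minus strand: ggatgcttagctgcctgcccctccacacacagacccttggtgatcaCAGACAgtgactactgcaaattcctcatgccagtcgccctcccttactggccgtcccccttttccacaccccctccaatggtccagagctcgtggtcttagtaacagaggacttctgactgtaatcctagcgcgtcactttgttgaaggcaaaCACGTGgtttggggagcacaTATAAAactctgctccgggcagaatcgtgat
Fstl1, chr16:37776805-37777054, plus strand: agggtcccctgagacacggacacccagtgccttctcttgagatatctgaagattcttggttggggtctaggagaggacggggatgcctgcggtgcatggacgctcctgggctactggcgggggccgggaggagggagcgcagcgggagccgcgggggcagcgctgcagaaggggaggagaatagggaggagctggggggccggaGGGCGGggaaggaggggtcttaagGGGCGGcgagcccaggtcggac
Tgfb1, chr7:25686752-25687001, plus strand: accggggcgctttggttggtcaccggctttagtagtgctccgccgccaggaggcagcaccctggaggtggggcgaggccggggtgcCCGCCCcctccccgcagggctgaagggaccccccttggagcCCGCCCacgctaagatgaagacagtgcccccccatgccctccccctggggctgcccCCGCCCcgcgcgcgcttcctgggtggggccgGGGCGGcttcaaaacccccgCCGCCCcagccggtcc
Bmpr1a, chr14:34502547-34502796, minus strand: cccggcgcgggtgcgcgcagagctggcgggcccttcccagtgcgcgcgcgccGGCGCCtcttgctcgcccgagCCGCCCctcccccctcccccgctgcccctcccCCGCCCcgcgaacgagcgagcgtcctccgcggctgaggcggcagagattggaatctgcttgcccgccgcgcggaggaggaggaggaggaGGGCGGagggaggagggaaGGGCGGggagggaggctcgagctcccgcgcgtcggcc

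The RefSeq table held a promoter for 29 of the 43 members. CAGACA was present in 3 of the 29 (10.3%), namely Tgfb2, Fstl3 and Mstn, and in 17.1% of all 27025 genes with a promoter of that length. TATAAA was present in the same 3 genes and in Inhba, 13.8% of member promoters against 13.0% of all. In Fstl3 the TATA match begins 29 bases before the start on the minus strand, and in Tgfb2 it begins 31 bases before the start on the plus strand. The GC box was present in 23 of the 29 (79.3%), against 32.9% of all, and GGCGCC in 8 (27.6%), against 9.54% of all. CACGTG was present in 4 (13.8%), against 6.05% of all. TGACTCA and TGACGT were in none of the 29, against 4.43% and 6.56% of all, and the median GC content was 68.0% in member promoters against 52.0% in all. A match is a run of letters and was not tested as a site.

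Among the ligands, the 3 TGF-beta genes were all higher in MHC403, and Tgfb2 by the most. Tgfb2 (chromosome 1, 188447065 to 188529871), the isoform prominent in heart valve and septum development, had 429 reads in MHC403 and 39 in WT, an 11.03-fold ratio (7.93 to 15.7). Tgfb1 (chromosome 7, 26472021 to 26490015), the isoform most studied in fibrosis, had 407 reads in MHC403 and 104 in WT, a 3.92-fold ratio (3.16 to 4.91). Tgfb3 (chromosome 12, 87397693 to 87419991) had 166 reads in MHC403 and 63 in WT, a 2.64-fold ratio (1.96 to 3.59). The interval of Tgfb2 did not overlap those of the other two, while those of Tgfb1 and Tgfb3 overlapped. By median-of-ratios scaling Tgfb2 was at 7.54-fold, Tgfb1 at 2.68-fold and Tgfb3 at 1.81-fold, within 2-fold. Bmp1, the protease that cleaves procollagen and also the antagonist chordin, had 239 reads in MHC403 and 69 in WT, a 3.47-fold ratio (2.65 to 4.61). Its window overlaps that of the entry mKIAA4159 on the same strand, which had 289 reads in MHC403 and 84 in WT, so these reads cannot be assigned to 1 entry.

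The make-up of the TGF-beta ligand reads differed between the libraries, a comparison that does not depend on scaling. Of the 1002 reads of the 3 genes in MHC403, Tgfb2 held 42.8% (39.7 to 45.9), and of the 206 in WT it held 18.9% (13.8 to 25.0). Tgfb1 held 40.6% (37.6 to 43.7) in MHC403 and 50.5% (43.5 to 57.5) in WT, intervals that overlap narrowly. Tgfb3 held 16.6% (14.3 to 19.0) in MHC403 and 30.6% (24.4 to 37.4) in WT. The intervals of Tgfb2 and of Tgfb3 did not overlap between the libraries. These shares are exact binomial, compare each gene with itself across the libraries, and do not rank the genes by level.

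The activin subunits stood high among the ligands at few reads. Inhbb (chromosome 1, 121312042 to 121318825), which encodes the inhibin and activin beta-B subunit, had 60 reads in MHC403 and 7 in WT, an 8.59-fold ratio (3.92 to 22.3). Inhba (chromosome 13, 16106284 to 16119044), the beta-A subunit, had 45 reads in MHC403 and 0 in WT. It fell short of the read minimum, and stood 15.0-fold higher against a floor of 3 counts set for the WT library. That value depends on the floor and is not a lower bound. Both subunit genes therefore had nearly all of their reads in the MHC403 library. Gdf15, a stress-induced member of the family, had 39 reads in MHC403 and 18 in WT, a 2.17-fold ratio (1.21 to 4.03), also under the minimum.

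The BMP ligands gave few reads. Bmp6, which in liver drives hepcidin expression, was the only measured one, with 100 reads in MHC403 and 56 in WT, a 1.79-fold ratio (1.28 to 2.53). Bmp4, a mesoderm inducer, had 33 reads in MHC403 and 31 in WT, 1.07-fold (0.633 to 1.80). Bmp2, an inducer of bone and of endocardial cushion, had 14 reads in MHC403 and 3 in WT, a ratio of 4.68-fold (1.31 to 25.4). These genes span ratios near 1 and well above it, and all but Bmp6 are under the read minimum. Bmp7 had 5 reads in MHC403 and 10 in WT, 0.501-fold (0.134 to 1.61), and myostatin, Mstn, a negative regulator of muscle mass, had 1 and 0. Bmp10, a ligand of the atrial myocardium in the adult, had 0 reads in both libraries. The atrial markers were also low, Myl7 with 31 reads in MHC403 and 27 in WT, Myl4 with 24 and 19, and Sln with 2 and 3. Summed over the 5 BMP genes there were 152 reads in MHC403 and 100 in WT, a ratio of 1.52 (1.18 to 1.98), beside 4.88 (4.19 to 5.69) for the 3 TGF-beta genes. Both groups were formed after the values were seen.

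**Figure D2:**
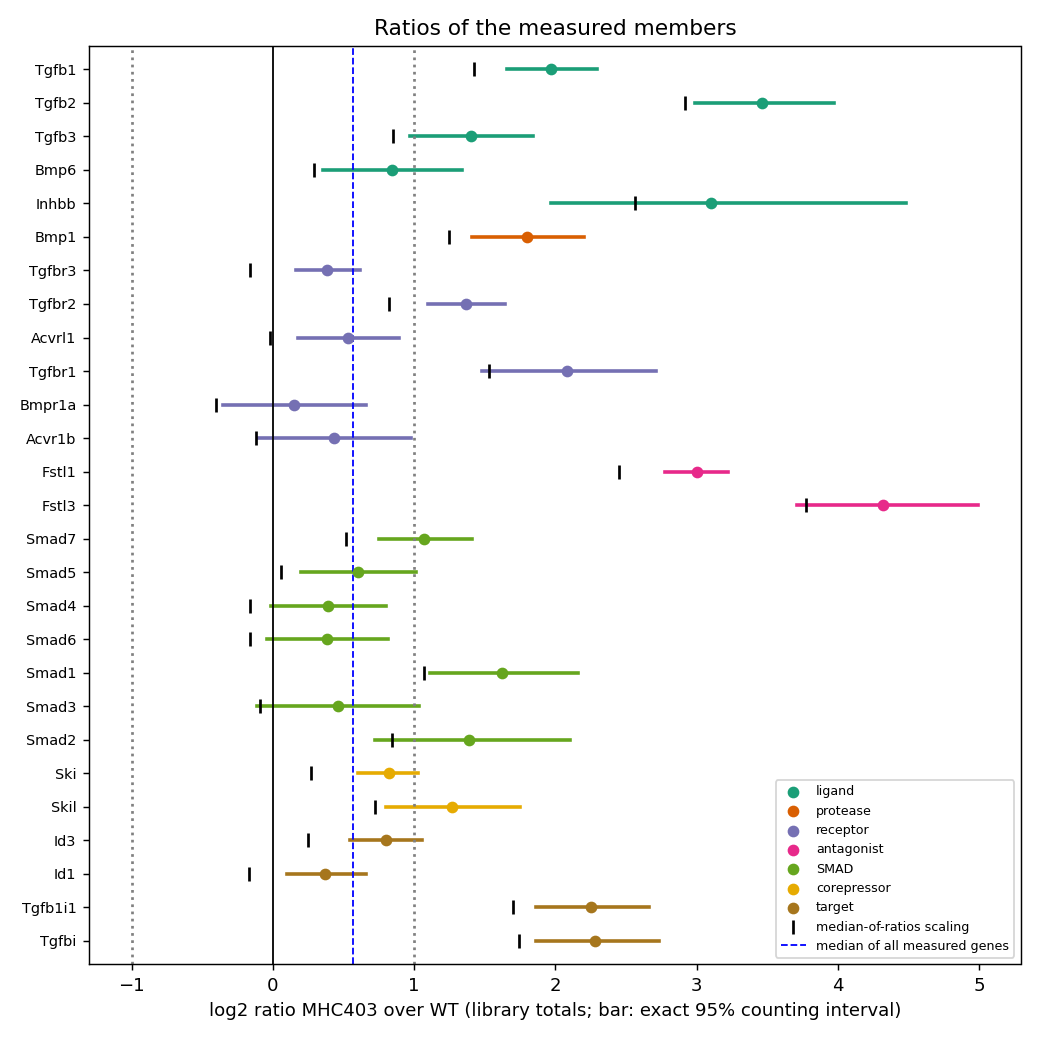
log2 ratio MHC403 over WT of the 27 measured members by library totals (points, coloured by role), with exact 95% counting intervals, black ticks for median-of-ratios scaling, dotted lines at 2-fold and a dashed blue line at the median of all measured genes, 0.57. The points of 15 genes lie at or beyond 2-fold, led by Fstl3 at 4.32, as do the black ticks of 10 genes.

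Among the receptors, both TGF-beta kinases were higher in MHC403 and the BMP and activin receptors lay within 2-fold or under the read minimum. Tgfbr1 (ALK5, the type I receptor of TGF-beta, chromosome 4, 47366177 to 47427796) had 122 reads in MHC403 and 29 in WT, a 4.22-fold ratio (2.79 to 6.56). Tgfbr2, the type II receptor (chromosome 9, 115996813 to 116084481), had 399 reads in MHC403 and 155 in WT, 2.58-fold (2.14 to 3.13). Tgfbr3, betaglycan, the coreceptor that presents TGF-beta 2 to the kinases, had 376 reads in MHC403 and 289 in WT, 1.30-fold (1.12 to 1.53). The interval of betaglycan overlapped neither kinase interval. Of the reads of these 3 genes betaglycan held 41.9% (38.7 to 45.2) in MHC403 and 61.1% (56.5 to 65.5) in WT. Tgfbr2 held 44.5% (41.2 to 47.8) in MHC403 and 32.8% (28.6 to 37.2) in WT, and Tgfbr1 13.6% (11.4 to 16.0) in MHC403 and 6.13% (4.14 to 8.69) in WT. All 3 shares thus differed between the libraries without overlap of their intervals. With median-of-ratios scaling Tgfbr1 was at 2.88-fold, Tgfbr2 at 1.77-fold and Tgfbr3 at 0.892-fold.

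Acvrl1 (ALK1), an endothelial type I receptor for BMP ligands, had 160 reads in MHC403 and 111 in WT, 1.44-fold (1.13 to 1.86). Bmpr1a (ALK3), a BMP type I receptor, had 72 reads in MHC403 and 65 in WT, 1.11-fold (0.783 to 1.58), and Acvr1b (ALK4), the activin type I receptor, had 70 and 52, 1.35-fold (0.929 to 1.97). For Bmpr1a and Acvr1b the interval included 1, so no difference was detectable at this depth. The 4 receptors under the minimum were the type II receptors Bmpr2, with 11 reads in MHC403 and 17 in WT, Acvr2a with 41 and 32, Acvr2b with 3 and 2, and the type I receptor Acvr1 (ALK2) with 23 and 20. Summed over these 7 BMP and activin receptor genes there were 380 reads in MHC403 and 299 in WT, a ratio of 1.27 (1.09 to 1.49), an interval that includes the 1.48-fold median of all measured genes. The 3 measured ones had a median log2 ratio of 0.43 by library totals and -0.12 by median-of-ratios scaling. The sum over Tgfbr1 and Tgfbr2 was 521 reads in MHC403 and 184 in WT, a ratio of 2.84 (2.39 to 3.38). The intervals of these sums did not overlap, but the groups were formed after the values were seen. Such intervals cover counting error and not the spread between genes. Of the 6 endothelial markers none reached 2-fold, with a summed 435 RPM in MHC403 and 356 RPM in WT. Pecam1 was at 1.84-fold (1.59 to 2.13) and Cdh5 at 1.31-fold (1.18 to 1.44), Kdr was at 0.715-fold (0.590 to 0.865) and 0.489-fold by median-of-ratios scaling, and the intervals of Tek, Tie1 and Emcn included 1. Their part in the receptor values was not tested.

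The secreted antagonists that passed the minimum were both follistatin relatives and both far higher in MHC403. Fstl3 (chromosome 10, 79240019 to 79245375), which binds and blocks activin and myostatin, had 458 reads in MHC403 and 23 in WT, a 19.96-fold ratio (13.1 to 31.8). It ranked 41 among the 9507 measured genes by ratio. Fstl1 (chromosome 16, 37777141 to 37836602), a secreted glycoprotein related to follistatin in sequence, had 1496 reads in MHC403 and 188 in WT, 7.98-fold (6.85 to 9.33), and ranked 172. By median-of-ratios scaling they stood at 13.7-fold and 5.46-fold. Of the reads of this pair Fstl3 held 23.4% (21.6 to 25.4) in MHC403 and 10.9% (7.04 to 15.9) in WT, without overlap. Follistatin itself, Fst, the antagonist of activin, had 13 reads in MHC403 and 4 in WT, 3.26-fold (1.01 to 13.7), under the minimum. The 3 BMP antagonists among the members gave few reads: chordin, Chrd, had 11 in MHC403 and 13 in WT, noggin, Nog, had 1 and 0, and gremlin, Grem1, had 0 in both. Fstl3 and the activin subunit genes Inhba, itself under the minimum, and Inhbb all had most of their reads in the MHC403 library. More RPM in MHC403 was also found in 38 of the 43 members and in 13676 of the 18331 entries with a read.

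**Figure D3:**
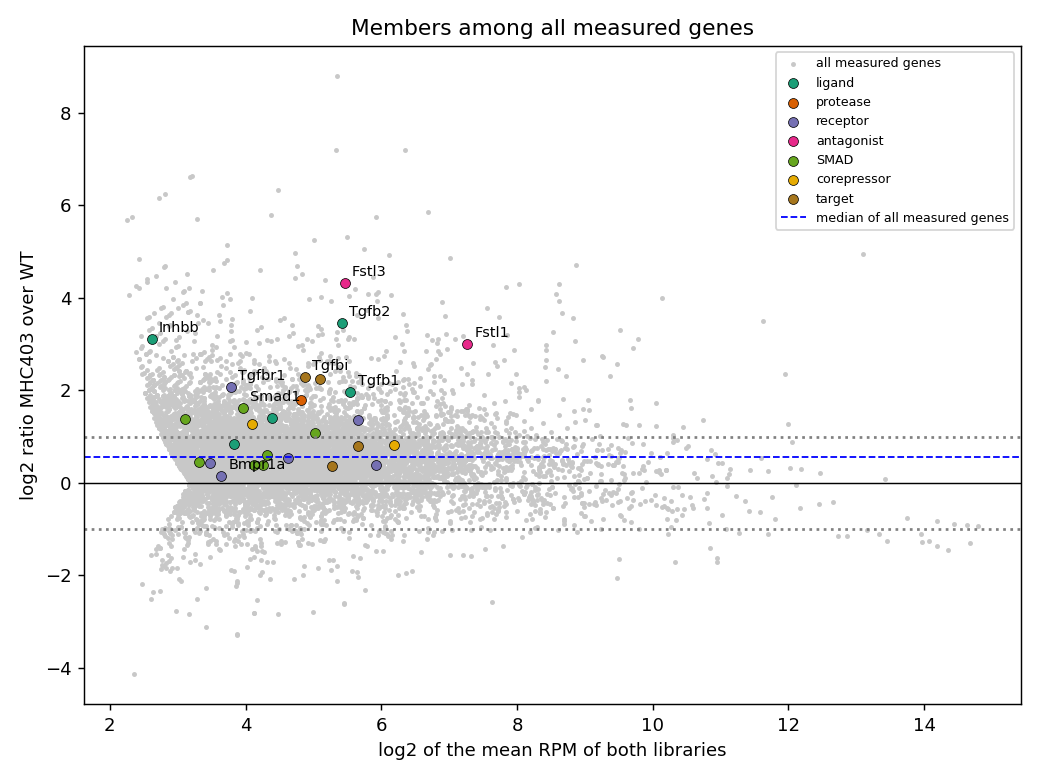
log2 ratio MHC403 over WT against the log2 mean RPM of both libraries for all 9507 measured genes (grey) and the 27 measured members (coloured by role), with a dashed blue line at the median of all measured genes. The members lie from 0.15 in Bmpr1a to 4.32 in Fstl3, 19 above the median of all measured genes and 8 below it.

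All 7 SMAD genes were measured, and 3 were at least 2-fold higher in MHC403, beside 26.1% of all measured genes. By median-of-ratios scaling 1 of the 7 was, beside 10.9%. Their median log2 ratio was 0.60, near the 0.57 of all measured genes. Smad1 (chromosome 8, 81862298 to 81923367), a transducer of the BMP branch, had 129 reads in MHC403 and 42 in WT, 3.08-fold (2.16 to 4.47), and its partner Smad5 had 132 and 87, 1.52-fold (1.15 to 2.02). Smad2 (chromosome 18, 76401579 to 76465385), of the TGF-beta and activin branch, had 68 reads in MHC403 and 26 in WT, 2.62-fold (1.65 to 4.29). Its partner Smad3, the SMAD most tied to matrix genes, had 63 reads in MHC403 and 46 in WT, 1.37-fold (0.924 to 2.05). In each branch 1 of the 2 receptor-regulated SMADs passed 2-fold, though the intervals of Smad2 and Smad3 overlapped. Both Smad1 and Smad2 had under 50 reads in WT and so were measured only through MHC403. The window of Smad3 overlaps that of an entry, AK214683, that had 5 reads in MHC403 and 4 in WT. Smad1 made up 49.4% (43.2 to 55.7) of the Smad1 and Smad5 reads in MHC403 and 32.6% (24.6 to 41.4) in WT, while Smad2 made up 51.9% (43 to 60.7) of the Smad2 and Smad3 reads in MHC403 and 36.1% (25.1 to 48.3) in WT. The intervals of the Smad1 share did not overlap and those of the Smad2 share did.

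The common partner Smad4 had 119 reads in MHC403 and 91 in WT, 1.31-fold (0.989 to 1.74). The inhibitory SMADs are induced by the pathway and feed back on it. Smad7, which blocks both branches, had 241 reads in MHC403 and 115 in WT, 2.10-fold (1.68 to 2.65), and Smad6, which blocks mainly the BMP branch, had 108 and 83, 1.30-fold (0.971 to 1.76). For Smad3, Smad4 and Smad6 the interval included 1. Smad7 made up 69.1% (63.9 to 73.9) of the reads of the pair in MHC403 and 58.1% (50.9 to 65.0) in WT, intervals that overlap. With median-of-ratios scaling Smad1 was the only SMAD at 2-fold, at 2.11, while Smad2 stood at 1.79 and Smad7 at 1.44, and Smad3, Smad4 and Smad6 stood between 0.892 and 0.939.

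The corepressor Ski, which binds SMAD complexes on DNA, had 508 reads in MHC403 and 289 in WT, 1.76-fold (1.52 to 2.04). Its relative Skil (SnoN), itself a TGF-beta target, had 132 reads in MHC403 and 55 in WT, 2.41-fold (1.74 to 3.36). Both intervals lay above 1 and they overlapped. With median-of-ratios scaling Skil was at 1.65-fold and Ski at 1.21-fold.

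**Figure D4:**
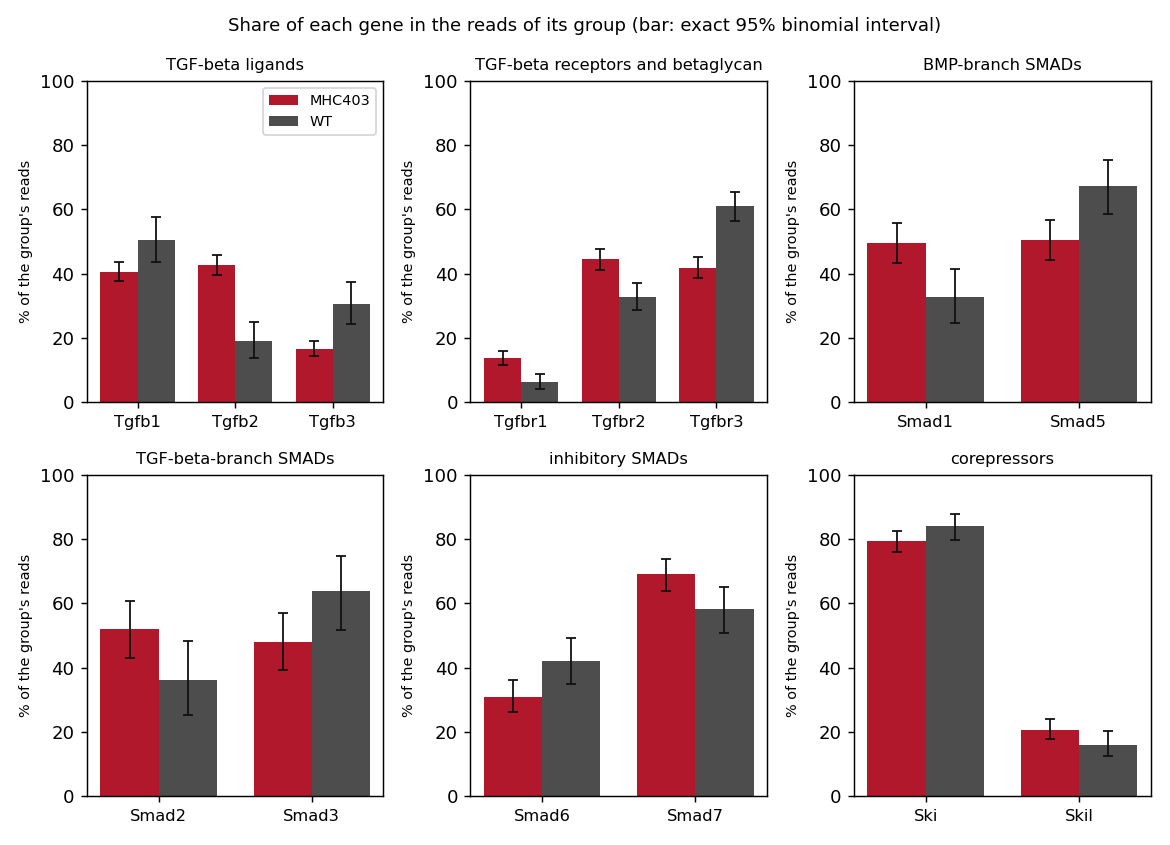
Share of each gene in the reads of its group of related members, in percent, in the MHC403 (red, left) and WT (grey, right) libraries, with exact 95% binomial intervals. In the 6 groups plotted, the intervals do not overlap between the libraries for Tgfb2, Tgfb3, Tgfbr1, Tgfbr2, Tgfbr3, Smad1 and Smad5.

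Of the 4 measured target genes among the members, 2 were at least 2-fold higher, beside 26.1% of all measured genes. Tgfbi (chromosome 13, 56710964 to 56740700), a matrix protein named for its induction by TGF-beta, had 267 reads in MHC403 and 55 in WT, 4.87-fold (3.63 to 6.63). Tgfb1i1 (Hic-5, chromosome 7, 135390385 to 135397226), a TGF-beta-induced LIM protein of focal adhesions, had 309 reads in MHC403 and 65 in WT, 4.76-fold (3.64 to 6.33). The Id genes, which encode inhibitors of basic helix-loop-helix factors and are classical BMP targets, were nearer to 1. Id1 had 238 reads in MHC403 and 184 in WT, 1.30-fold (1.07 to 1.58), and Id3 had 350 and 202, 1.74-fold (1.46 to 2.08). Id2 had 35 reads in MHC403 and 23 in WT, 1.53-fold (0.876 to 2.70), under the minimum. The intervals of Tgfbi and Tgfb1i1 lay wholly above those of the measured Id genes, Id1 and Id3. With median-of-ratios scaling Tgfbi was at 3.33-fold and Tgfb1i1 at 3.26-fold, while Id1 was at 0.887-fold and Id3 at 1.19-fold.

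Of 74 other genes of the pathway, 31 were measured, 18 were at least 2-fold higher in MHC403 and none was lower, with a median log2 ratio of 1.14. All measured genes gave 26.1% higher and 2.43% lower, which is also the background of the counts by role. These genes were listed with earlier results of the study known. The proteins that hold TGF-beta latent or release it held 7 higher genes among 9 measured, or 3 by median-of-ratios scaling. Thbs1, thrombospondin 1, an activator of latent TGF-beta, had 648 reads in MHC403 and 12 in WT, 54.1-fold (30.8 to 105), and the latent TGF-beta binding protein Ltbp2 had 480 and 12, 40.1-fold (22.7 to 78.1). Ltbp3 stood at 3.90-fold (3.33 to 4.59), Ltbp4 at 2.21-fold (2.03 to 2.40) and Ltbp1 at 1.14-fold (0.912 to 1.42), so the binding proteins spanned a wide range. Ltbp2, despite its name, is not known to hold latent TGF-beta as the others do.

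Among the 6 other measured target genes 5 were higher. Postn, periostin, a matrix protein, had 1103 reads in MHC403 and 19 in WT, 58.2-fold (37.1 to 97.0). The growth regulator Ctgf had 4556 reads in MHC403 and 383 in WT, 11.9-fold (10.7 to 13.3), with a window that overlaps another entry. Tsc22d1, a leucine zipper gene also induced by TGF-beta, had 859 reads in MHC403 and 735 in WT, 1.17-fold (1.06 to 1.29), an interval that overlaps that of Id1. Among nuclear regulators 4 of 7 measured genes were higher, led by the SMAD corepressor Tgif1, with 74 reads in MHC403 and 7 in WT, 10.6-fold (4.89 to 27.3). Among 5 measured antagonists 2 were higher, the BMP antagonist Nbl1 at 4.26-fold (3.17 to 5.81) and the decoy receptor Bambi at 2.21-fold (1.61 to 3.06), and none of the 4 measured receptor and coreceptor genes was. None of the 21 other ligands reached the read minimum, with 101 reads in MHC403 and 63 in WT over all of them. Hfe2, hemojuvelin, a BMP coreceptor, was the measured pathway gene whose interval lay below 1, with 356 reads in MHC403 and 519 in WT, 0.687-fold (0.599 to 0.788). By median-of-ratios scaling, 11 of the 31 were higher and Hfe2 was the 1 lower gene, beside 10.9% and 7.59% of all measured genes. The higher ones were then 5 targets, 3 latency and activation genes, 2 nuclear regulators and 1 antagonist, Nbl1, with Bambi at 1.51-fold.

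Markers of non-myocyte cells also differed between the libraries, and in heart tissue more cells of a type and more RNA per cell cannot be told apart. All 6 measured macrophage markers were at least 2-fold higher in MHC403, but 3 of the 6 were by median-of-ratios scaling. With Ptprc, which was under the minimum, the 7 macrophage markers summed to 294 RPM in MHC403 and 96.1 RPM in WT. Of 6 fibroblast markers 3 were higher, or 2 after that rescaling, with a summed 1556 RPM in MHC403 and 393 RPM in WT. Col1a1 gave 899 RPM of this sum in MHC403 and 34.3 RPM in WT, 26.2-fold (22.6 to 30.5), and Dcn gave 544 RPM in MHC403 and 304 RPM in WT. The other fibroblast markers were Lum at 3.51-fold (2.55 to 4.91), Pdgfra at 2.25-fold (1.81 to 2.80), Tcf21 at 1.79-fold (1.19 to 2.74), Dcn at 1.79-fold (1.69 to 1.90) and Ddr2 at 1.18-fold (0.874 to 1.58). Of 4 measured smooth muscle markers 2 were higher, or 1 after rescaling, with sums over 5 markers of 319 RPM in MHC403 and 188 RPM in WT. The mesothelial markers were all under the minimum, with sums of 17.4 RPM in MHC403 and 7.66 RPM in WT, as were the atrial markers, with 10.4 RPM in MHC403 and 8.94 RPM in WT. The cardiac myocyte markers summed to 35207 RPM in MHC403 and 60510 RPM in WT. By library totals 2 of 7 were lower, Myh6 and Myl2, and 4 of 7 by median-of-ratios scaling. Of the sums Myh6 gave 10089 RPM in MHC403 and 24259 RPM in WT, and Myl2 gave 6601 RPM in MHC403 and 15787 RPM in WT. The other myocyte markers were split by library totals. Tnni3 was at 0.582-fold and Myl3 at 0.653-fold, but Ryr2 was at 1.01-fold, Tnnt2 at 1.05-fold and Actn2 at 1.56-fold. No marker in these lists was at 0 in either library. The part of any cell type in the member ratios was not tested. All measured members, from Bmpr1a at 1.11-fold to Fstl3 at 19.96-fold, lay between the non-myocyte markers Kdr at 0.715-fold and Col1a1 at 26.2-fold. After Col1a1 the highest such marker was Cd68 at 5.55-fold. Fstl3, Tgfb2 at 11.03-fold, Inhbb at 8.59-fold and Fstl1 at 7.98-fold had point ratios above that of Cd68. The other higher members, from Tgfbi at 4.87-fold to Smad7 at 2.10-fold, had lower ones. The markers are few per cell type and were chosen with earlier results known, so this order is descriptive only. The intervals of Inhbb (3.92 to 22.3) and Fstl1 (6.85 to 9.33) overlapped those of the macrophage markers Cd68 (4.02 to 7.80) and Cd14 (3.57 to 8.01). That of Tgfb2 (7.93 to 15.7) overlapped the interval of Cd14.

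**Figure D5:**
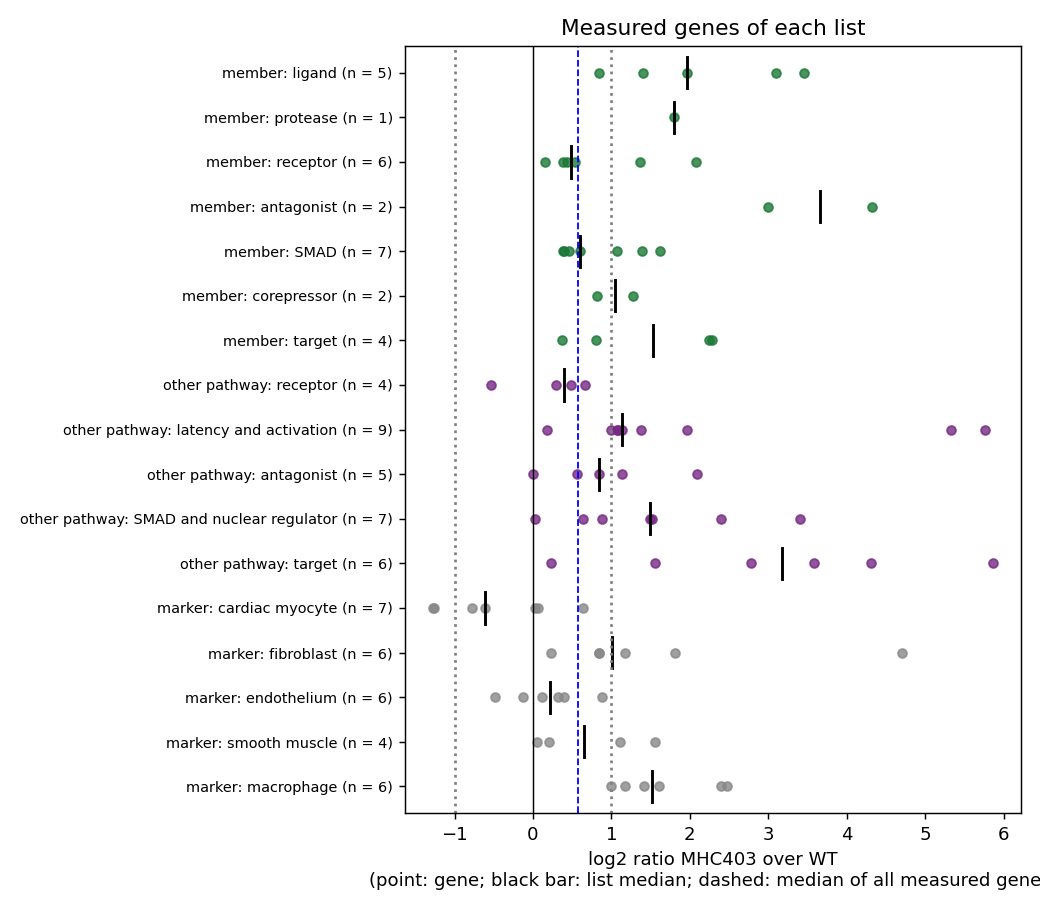
log2 ratio MHC403 over WT of every measured gene (points) in the member roles (green), the other pathway genes (purple) and the cell-type markers (grey), with black bars at list medians, dotted lines at 2-fold and a dashed line at the median of all measured genes. The 6 measured of 10 member receptors have a median of 0.48 and the 7 SMADs of 0.60, near the median of all measured genes at 0.57. The 5 measured of 12 member ligands have a median of 1.97, and of these Tgfb2 and Inhbb had under 50 reads in WT.

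The counts do not separate starts within a gene. Of the 43 members 35 had 1 annotated start and 8 had more, and counting windows covered 200 to 1037 bases. The genes with more were Tgfbr1, Tgfb1i1, Bmpr1a, Acvrl1, Gdf15, Smad2, Smad4 and Smad5, and their reads were summed over starts. Of the 20 measured members with 1 start 12 were at least 2-fold higher, and of the 7 measured members with more starts 3 were. Over all measured genes, with any number of starts, 26.1% were. The share by number of starts was not computed over all genes, so the member counts are not compared. In the authors' deposited table the start-site score was above 0 in 7 of the 30 members whose libraries both reached 20 reads (23.3%), and in 34.7% of all entries with that depth. The members were Fstl1, Smad6, Tgfbr2, Acvrl1, Smad4, Tgfb1 and Tgfb1i1, with Fstl1 highest. No source used here gives the formula of this score, so its values are not interpreted.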

How the data were processed

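Heart RNA of 1 MHC403/+ pool and 1 WT pool was measured, grouped by the genotype label. The submitters' processing notes name TopHat 1.0.14 and mm9; no source used here states the counting program or its use of strand. The authors' read counts per gene, per the file headers, carry no normalization. They also deposited RPM, which on recomputation differed by at most 4.94e-06, a fold (the ratio of RPM, left empty for genes under 10 reads in each library, and set to 999 for a WT count of 0), a p-value of unstated test that was not used, and a start-site score.

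With 1 library per genotype no test across genotypes was possible. Ratios and Clopper-Pearson intervals were computed with SciPy 1.17.1, and TMM factors with edgeR 4.0.16. The ratios and intervals, but not the scalings or shares, were tested on counts simulated with counting error only. For a gene with 50 reads in each library, counting error alone gives 0.664 to 1.51. Amplified reads carry no molecular identifiers here. Starts are written 1-based. The 43 members, the 74 pathway genes and the markers were chosen with earlier results of these data known, and groups within roles after the values were seen. All members are named; of the pathway genes the 6 with the highest interval bound were to be named, of which 1 is not reported here, and other latency genes, Nbl1, Bambi, Tsc22d1 and Hfe2 were added after their values were seen. Alternatives were other scalings, read minimums, a 1.5-fold threshold and leaving out overlapping entries.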

Additional observations from a re-analysis of the deposited data

How the results depend on the processing

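No paired analysis was possible because each genotype had 1 library, so leaving out a replicate was not possible either. The median of the members was 0.72 with median-of-ratios scaling. Median-of-ratios and TMM scaling each left 10 members higher and none lower, and Tgfb3, Tgfbr2, Smad2, Smad7 and Skil fell below 2-fold; totals without mitochondrially encoded entries left 13, without Smad7 and Skil. Each of these 3 scalings lowers every log2 ratio by a constant of at most 0.55, so no member that was 2-fold higher could change direction. Of the members within 2-fold, 8 (Tgfbr3, Bmpr1a, Acvr1b, Acvrl1, Smad3, Smad4, Smad6 and Id1) stood below a ratio of 1 by median-of-ratios or TMM. The number of members higher was 9 of 13 with a minimum of 200 reads, and 9 of 20 with at least 50 reads in both libraries, an alternative chosen after seeing the data. Of the 31 other measured pathway genes 11 were higher and 1 lower by either of median-of-ratios or TMM, with medians of 0.59 and 0.60. With a minimum of 200 reads 10 of 16 were higher, and with 50 reads in both libraries 10 of 23 were. With 20 reads 1 of 39 was lower. Over all 9507 measured genes, higher and lower counts were 2483 and 231 on library totals and 1033 and 722 by median-of-ratios. They were 1040 and 718 with TMM, 1528 and 400 without mitochondrially encoded entries, and 4666 and 534 at 1.5-fold. Other minimums changed the number of genes counted. The counts were 989 and 100 of 3998 with 200 reads, and 1254 and 127 of 7348 with 50 reads in both. With 20 reads 357 of 12325 were lower. Depth limits the 16 members under the minimum most.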
